A study of Rattus norvegicus with 4 samples.

Results

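The genes of synaptic vesicle exocytosis were followed in 2 layers of the rat crista ampullaris, where the hair cells of a semicircular canal respond to turning of the head. Members were chosen by current rat gene symbol: the synaptotagmins and synaptotagmin-like genes, the syntaxins and syntaxin binding proteins, the VAMP, SNAP25-type, complexin, synapsin, SV2, Unc13 and Rims families, the NSF attachment proteins Napa, Napb and Napg, and Otof, Ctbp2, Nsf, Bsn, Pclo, Syp, Sypl1 and Synj1. Named probes were found for 72 such genes, on 101 probes, among 12324 named genes and 33849 gene probes of the array. Snap91 entered through its symbol, but it encodes a clathrin assembly protein and not a SNARE. Syt1, Syt7, Unc13a, Cplx3 and Cplx4 are among the 14 genes of the same families for which no probe was named here.

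Hair cells release glutamate onto vestibular afferents at ribbon synapses, where a protein ribbon tethers synaptic vesicles close to calcium channels. At conventional synapses, a vesicle SNARE of the VAMP family pairs with a syntaxin and a SNAP25-type protein on the target membrane, and the pairing drives fusion. How far hair cells share each part of this scheme was not tested here. SM proteins, which bind syntaxins, complexins and Munc13 proteins prepare and regulate the complex, a C2-domain protein senses calcium, and NSF with its attachment proteins takes the spent complex apart. In hair cells the calcium sensor is otoferlin, while most conventional synapses use synaptotagmins. Many members of these families act in traffic between the Golgi apparatus, endosomes, lysosomes and the plasma membrane in every cell.

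The title places the study in trophic factor expression by supporting cells. Laser capture by morphology took first the superficial hair cell layer (HC layer), which holds both hair cell types, I and II, with cytoplasm of supporting cells among them, and then the supporting cell bodies beneath, the supporting cell layer (SC layer). The hair cells were recognised by their stereociliary tuft, the calyceal nerve ending around them and the place of their nucleus. There were 2 single-colour arrays for each layer, made after linear amplification of polyadenylated RNA. The labels give no strain, age or treatment, nor whether replicate arrays came from different animals, so the p-values speak of the spread among these 4 arrays alone, and that spread may be technical. In bulk captures, fewer cells of a type and less RNA per cell cannot be told apart.

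The number of arrays limits the precision. The arrays of the HC layer had median raw intensities of 26.5 and 17.0, and those of the SC layer of 12.1 and 12, and 39.7% to 48.8% of gene probes were detected, that is, called above background by the scanner software. Of 15 hair cell markers with a tested probe, outside the exocytosis genes, 13 were higher in the HC layer and none in the SC layer, and their summed normalized intensity was 12372 and 13260.1 against 5479 and 5201. All 15 were detected on both HC layer arrays, and the myosin Myo7a and the buffer Calb2 were the 2 that did not pass. Of 14 supporting cell markers 5 were higher in the HC layer and 6 in the SC layer, with sums of 25712 and 25464 against 23910.2 and 24703, so this list did not separate the layers. Nerve markers went toward the SC layer, with 7 of 9 tested called higher there and 2 higher in the HC layer. Those 2 were the neurofilaments Nefl and Nefm, detected in the HC layer alone, so the list was divided. Their fitted changes of -2.95 ± 0.65 and -2.79 ± 0.26 are no measure of size. The lowest detected signals bound them at 3.17-fold and 1.60-fold or more. The summed intensity of the 9 tested and 6 undetected markers was 932 and 966 in the HC layer and 1938 and 1969 in the SC layer, where Gria2, a glutamate receptor subunit, gave 574.8 and 573.8 of it. The nerve markers Nefh, Stmn2, Mapt, Scn1a, Elavl4 and Ina were detected on no array. Endothelial and pericyte markers were also higher in the SC layer, in 6 of 7 tested, with sums of 862 and 890.4 against 2871 and 1408, the last without Cldn5, whose spot was left out. Their median change was 3.22, with Tie1 at 3.54 ± 0.09, while Vwf was higher in the HC layer (-2.48 ± 0.16) and Kdr was detected on no array. Nerve endings and vessels carry many of the same exocytosis genes, and the part of their RNA in the values below was not tested. This holds for genes called toward the HC layer, such as Syt2, Cplx1, Sv2a and Syn3, as for those called toward the SC layer.

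Of the 72 genes, 41 (56.9%) were detected on at least 2 of the 4 arrays and were tested, against 63.0% of all named genes. Counts and medians below cover these 41 and not the other 31. By limma, with p-values adjusted by Benjamini-Hochberg across the 16483 probes tested and a threshold of 0.05, 18 were higher in the HC layer, 10 were higher in the SC layer and 13 did not pass. Of the 41, 5 were detected in the HC layer alone, Cplx2 and Stxbp2 of the 18 among them, and 1 in the SC layer alone. Their direction follows largely from the filter. The lowest detected signals were 13.9 and 18.5 on the HC layer arrays and 26.6 and 28.3 on the SC layer arrays. The called share was 68.3%, beside 65.4% of all 7768 tested genes and 67.4% of all tested probes. The HC layer share of 43.9% stood beside 37.2%, and the SC layer share of 24.4% beside 28.2%. These shares are near the background and do not set the exocytosis genes apart. What the members show is which genes went which way. The median change, supporting minus HC layer, was -0.51 on the log2 scale over the tested members and -0.10 over all tested genes. For the 28 members detected on all 4 arrays it was 0.00, beside 0.02 for all such genes. Of these 28, 11 were called higher in the HC layer (34.1% of all such genes) and 10 in the SC layer (31.5%).

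**Figure D1:**
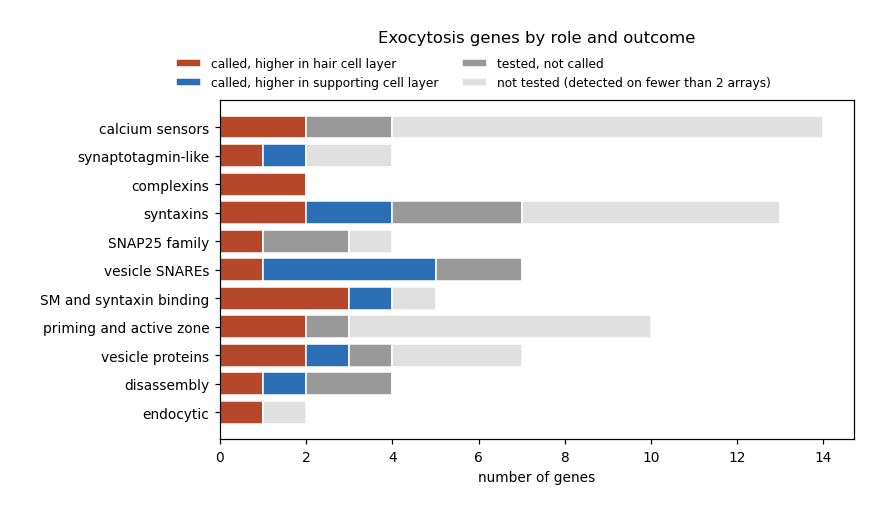
Number of exocytosis genes (horizontal axis) in each role, split into genes called higher in the HC layer, called higher in the SC layer, tested but not called, and not tested. The vesicle SNAREs are all tested and 4 of 7 are called higher in the SC layer, beside 31.5% of all genes detected on all 4 arrays. Of the calcium sensors 10 of 14, and of the priming and active zone genes 7 of 10, are not tested.

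The scale matters for directions. Raw intensities were higher in the HC layer, and with no scaling between arrays, an alternative added after the data were seen, the median of all tested probes moved from 0.01 to -0.67. On that scale 28 members were called higher in the HC layer and 1, Napb, in the SC layer. Changes are therefore given relative to the array as a whole, from quantile-normalized intensities, whose median was 16.5 on each array. Of the 28 calls, 4 held in the same direction under all 16 alternatives: Napb, Nsf, Synj1 and Sytl2. Each alternative took the values of Nsf and Sytl2 from the same tested probe, so their untested probes had no part in this. The HC layer count fell to 10 without HC layer array 1 and to 10 without array 2.

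Napb, Nsf and Synj1, of the 4 genes called under every alternative, are shown with their promoters, as is Otof, the hair cell calcium sensor. The promoter window reaches from 250 bases before the gene's start to 50 after it, from RefSeq on GRCr8, printed 5′ to 3′ on the gene's strand. Capitals mark 4 motifs on either strand. The GC box was searched as GGGCGG. The CCAAT box was searched by the letters of its name. The TATA box was searched as TATAAA, and the cAMP response element as TGACGTCA. Otof lies at chr6:31647664-31647963 on the plus strand, Nsf at chr10:89357334-89357633, Synj1 at chr11:43755477-43755776 and Napb at chr3:156632369-156632668, the last 3 on the minus strand.
Otof: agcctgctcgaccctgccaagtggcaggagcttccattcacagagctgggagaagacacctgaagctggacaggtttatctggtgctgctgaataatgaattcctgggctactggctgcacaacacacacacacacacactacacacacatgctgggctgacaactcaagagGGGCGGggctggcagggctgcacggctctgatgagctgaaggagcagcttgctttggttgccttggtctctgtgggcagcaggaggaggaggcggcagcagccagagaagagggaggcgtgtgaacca
Nsf: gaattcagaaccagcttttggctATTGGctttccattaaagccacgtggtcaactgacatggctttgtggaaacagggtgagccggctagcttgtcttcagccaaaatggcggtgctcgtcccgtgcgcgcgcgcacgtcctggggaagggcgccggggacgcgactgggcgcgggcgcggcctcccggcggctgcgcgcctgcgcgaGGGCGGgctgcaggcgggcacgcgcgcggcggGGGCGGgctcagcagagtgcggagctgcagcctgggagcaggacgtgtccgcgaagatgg
Synj1: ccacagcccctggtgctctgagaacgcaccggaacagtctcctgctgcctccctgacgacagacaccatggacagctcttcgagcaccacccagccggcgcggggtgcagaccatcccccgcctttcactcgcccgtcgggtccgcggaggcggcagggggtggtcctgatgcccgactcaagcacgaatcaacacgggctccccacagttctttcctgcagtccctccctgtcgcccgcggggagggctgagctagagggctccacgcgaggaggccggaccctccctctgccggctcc
Napb: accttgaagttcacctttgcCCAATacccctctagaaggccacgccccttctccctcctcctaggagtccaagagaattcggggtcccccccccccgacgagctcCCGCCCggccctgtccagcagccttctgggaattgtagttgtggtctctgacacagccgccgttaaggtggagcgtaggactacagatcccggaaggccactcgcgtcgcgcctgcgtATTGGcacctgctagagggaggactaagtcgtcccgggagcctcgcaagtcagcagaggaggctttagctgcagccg

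The Otof window held 1 GC box, the Nsf window 2 GC boxes and 1 CCAAT box, the Napb window 1 GC box and 2 CCAAT boxes, and the Synj1 window none of these motifs. Promoters were found for 57 of the 72 members. A GC box was present in 39 of them (68.4%), beside 33.1% of all 33469 promoters of the same length in the table, and the median GC content was 63.3% against 51.7%. The 33469 were not narrowed to the 12324 genes named on the array. In these contrasts and those below the 2 sets therefore differ in more than the module, and no difference was tested. The E-box CAGCTG was present in 17 (29.8%, beside 15.1% of all), the E-box CAGATG in 6 (10.5%, beside 16.6%) and CACGTG in 6 (10.5%, beside 6.42%). A CCAAT box was present in 20 (35.1%, beside 37.5%), a TATA box in 3 (5.26%, beside 14.2%) and a cAMP response element in 3 (5.26%, beside 1.83%). GC boxes were found in 8 of 15 promoters of members higher in the HC layer, 8 of 9 of those higher in the SC layer and 15 of 22 of those not tested. Motifs were searched on both strands, and the matches describe letters in a window; no binding was measured.

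The calcium sensors were mostly below detection. Of 14 genes, Otof, Syt2, Syt5 and Syt6 were tested. Among them 2 were higher in the HC layer and none in the SC layer, beside 37.2% and 28.2% of all tested genes. Otof read 132 and 138 on the HC layer arrays and 86.0 and 94.0 on the SC layer arrays. The layers did not overlap, as for 89.1% of all tested genes with a value on each array. The Otof signal was higher in the HC layer, with a change of -0.59 ± 0.09 (SE from limma, 2 arrays per layer, adjusted p = 0.0113). Syt2, a fast synaptotagmin of conventional synapses, read 86.7 and 54.7 in the HC layer and 35.0 and 29.9 in the SC layer, the last not above background. Its change of -1.09 ± 0.28 passed (limma adjusted p = 0.0398), with wider scatter than Otof.

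Syt5 and Syt6 did not pass. Syt5 read 16.6 and 32.8 in the HC layer and, undetected, 4.91 and 19.2 in the SC layer. Syt6 was detected on 1 array of each layer, at 18.4 and 63.5, and its other arrays read 22.1 and 8.03, so that the layers overlapped. The other 10 synaptotagmins were not tested. Of these Syt9 was detected on HC layer array 1 alone, at 89.1 against 3.74 on the second array, and Syt3, Syt4, Syt8, Syt10, Syt11, Syt12, Syt13, Syt15 and Syt17 were detected on no array. A difference in these 9 genes was not detectable here. The Otof call was lost without HC layer array 1 or 2 (limma adjusted p = 0.0582 and 0.0652) and with median scaling (0.228). The Syt2 call was lost without HC layer array 1 (0.0690) and without SC layer array 1 or 2 (0.0852 and 0.124).

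Among the synaptotagmin-like genes, effectors that link Rab27 vesicles to the plasma membrane, Sytl2 and Sytl3 went opposite ways. Sytl2 read 241 and 233 in the HC layer and 74.6 and 71.2 in the SC layer. It was 3.25-fold higher in the HC layer (change -1.70 ± 0.08, limma adjusted p = 0.00150), and over the alternatives its change ran from -2.38 to -1.56. Sytl3 read 955 and 968 in the HC layer and 1370.4 and 1353 in the SC layer, and its change was 0.50 ± 0.07 (limma adjusted p = 0.00941). Without HC layer array 1 or 2 the adjusted p of Sytl3 was 0.0558 and 0.0509, and on unscaled raw intensity its change was -0.19. Sytl1 and Sytl5 were detected on no array.

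Complexins clamp and promote fusion by binding the assembled SNARE complex. Both complexins with a named probe were called higher in the HC layer at their brightest tested probe, beside 37.2% of all tested genes. Cplx1 read 92.3 and 95.3 there and 31.2 and 20.7 in the SC layer, where the second array was not above background. The layers did not overlap, and the change was -1.88 ± 0.24 (limma adjusted p = 0.00823). A second, untested Cplx1 probe read 7.43 and 22.7 in the HC layer and 28.6 and 30.4 in the SC layer, the other way round, and was above background on HC layer array 2 alone. Cplx2 read 30.0 and 27.9 in the HC layer and was not above background in the SC layer, at 4.74 and 12.4. Its fitted change of -1.92 ± 0.54 (limma adjusted p = 0.0493) is no measure of size. The lowest detected signal bounds it only at 1.05-fold or more, computed as the HC layer mean over the higher of the undetected value and the lowest detected signal of each SC layer array, which was 26.6 and 28.3. With a floor at the highest of the arrays' detection limits the limma adjusted p of Cplx2 was 0.459. Leaving out HC layer array 1 or 2 gave an adjusted p of 0.0635 and 0.0582 for Cplx1 and of 0.180 and 0.183 for Cplx2.

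Syntaxins, the target membrane SNAREs, were divided. Of 13 genes 7 were tested: 2 were higher in the HC layer, 2 in the SC layer and 3 did not pass. All tested genes gave 37.2% and 28.2% for the 2 layers. Stx6, a syntaxin of the trans-Golgi network and endosomes, read 294 and 295 in the HC layer and 108 and 104 in the SC layer (change -1.47 ± 0.07, limma adjusted p = 0.00165). A second, dimmer Stx6 probe had the opposite sign. It was detected only in the SC layer, at 38.7 and 37.9 against 13.3 and 14.4, which bounds it at 2.39-fold or more higher there. The mean over both probes changed by 0.00, so the direction of Stx6 depends on the probe. Stx4, a plasma membrane syntaxin of regulated secretion, read 85.1 and 90.4 in the HC layer and 40.4 and 36.8 in the SC layer, 2.27-fold lower there (change -1.18 ± 0.09, limma adjusted p = 0.00310).

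The syntaxins higher in the SC layer act inside the cell, as Stx6 also does. The endosomal Stx7 read 322 and 287 in the HC layer and 502 and 478 in the SC layer (change 0.69 ± 0.10, limma adjusted p = 0.0102). Stx5, of traffic between the endoplasmic reticulum and the Golgi apparatus, read 874 and 871 against 1092 and 1105 (change 0.33 ± 0.07, limma adjusted p = 0.0234). Neither pair of layers overlapped, but on unscaled raw intensity both changes turned negative, at -0.02 for Stx7 and -0.36 for Stx5. The Stx5 adjusted p was between 0.0696 and 0.0927 with any 1 of the 4 arrays left out.

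Stx1a, the syntaxin of neuronal synapses, read 40.6 and 45.3 in the HC layer and 10.7 and 32.6 in the SC layer. All HC layer values lay above those of the other layer, but the SC layer arrays were far apart and the change of -1.20 ± 0.63 did not pass (limma adjusted p = 0.174). Without SC layer array 2, the higher of them, the change was -2.03. It then rests on the 1 SC layer value of 10.7, which was not above background, and is no test of the gene. Stx12 and Stx18 did not pass either, with changes of -0.11 ± 0.09 and -0.59 ± 0.27. The untested syntaxins include Stx3, at 2.17 to 4.88 without detection on the 3 arrays with a usable spot. Stx2, Stx11, Stx16 and Stx17 were likewise detected on no array.

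The SNAP25-type genes also differed among themselves. Snap25, the neuronal form, was detected on HC layer array 1 alone, at 30.6, and read 6.11, 8.62 and 2.40 on the other arrays, so no difference could be tested. Snap23, its widely expressed relative, read 575 and 586 in the HC layer and 639.6 and 573 in the SC layer, and its change of 0.06 ± 0.09 did not pass (limma adjusted p = 0.580). Snap47 was higher in the HC layer at 535 and 641 against 273 and 284 (change -1.07 ± 0.12, limma adjusted p = 0.00666). Snap29, which acts in endosomal and autophagosomal fusion, was detected only in the SC layer, at 36.1 and 32.8 against 5.27 and 15.3. It was bounded at 2.15-fold or more but did not pass (limma adjusted p = 0.0611). Without HC layer array 1 or 2 its HC layer value rests on a single undetected spot, which is no test of the gene. The Snap47 call was lost with the scanner software's own normalization (adjusted p = 0.0777).

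**Figure D2:**
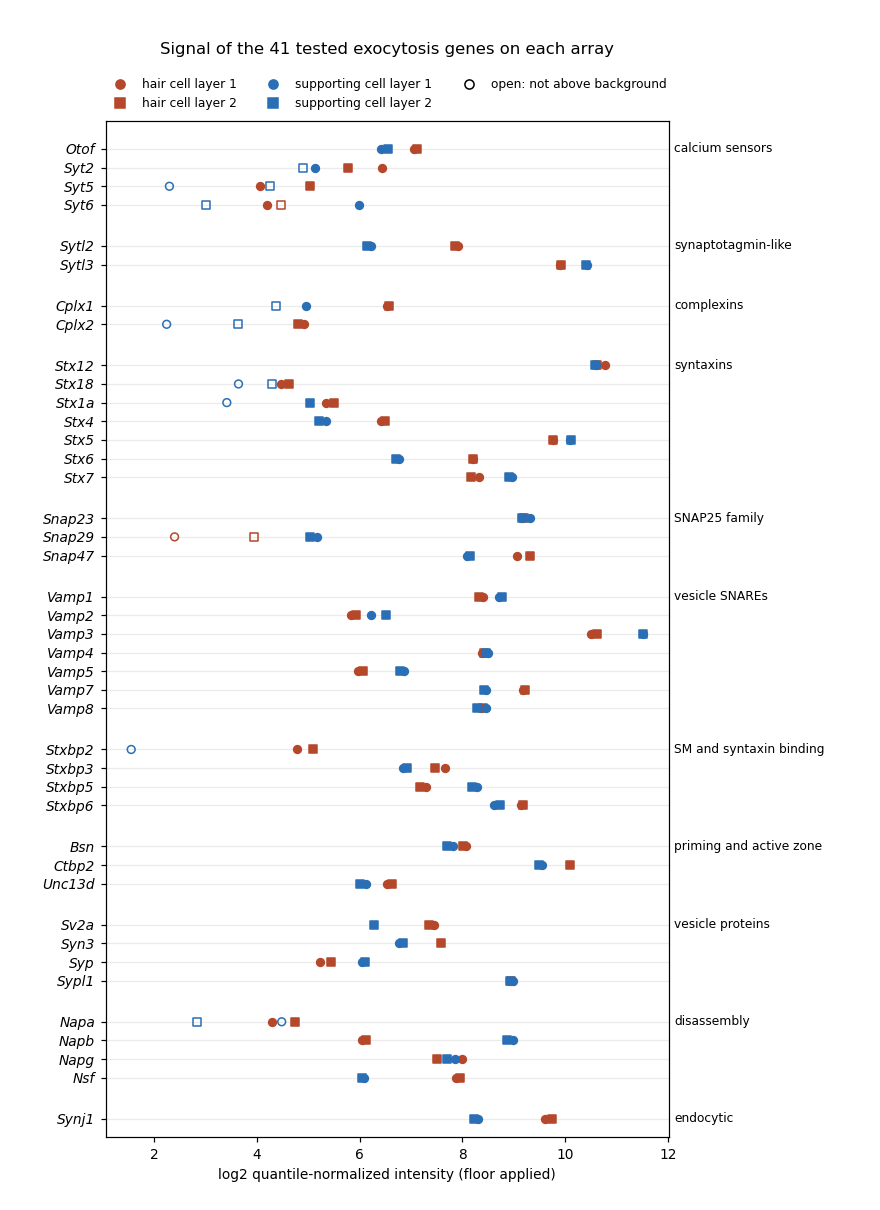
log2 quantile-normalized intensity (horizontal axis) of the 41 tested genes on each of the 4 arrays, grouped by role; filled symbols are detected spots, open symbols spots not above background. The replicate arrays of a layer nearly coincide for bright genes such as Vamp3 and Sytl3 and scatter for dim ones such as Syt5, Stx1a and Napa.

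All 7 vesicle SNAREs with a named probe were detected on all 4 arrays. Of these 4 were higher in the SC layer, 1 was higher in the HC layer and 2 did not pass. All genes detected on all 4 arrays gave 31.5% and 34.1% in the same order. With 7 genes the difference in share was not tested. Vamp3, or cellubrevin, of recycling endosomes, read 1444 and 1569 in the HC layer and 2936 and 2939 in the SC layer (change 0.96 ± 0.08, limma adjusted p = 0.00362). Vamp5, best known from muscle and endothelium, read 62.4 and 67.2 against 116 and 110.4 (change 0.81 ± 0.08, limma adjusted p = 0.00542). Both were higher on each SC layer array than on either HC layer array. In that layer 6 of 7 endothelial and pericyte markers were higher too, with the sums given above, and their part in these values was not tested.

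The synaptic VAMPs followed with smaller changes. Vamp1 read 339 and 322 in the HC layer and 420.4 and 436 in the SC layer (change 0.37 ± 0.08, limma adjusted p = 0.0234). Vamp2, the main synaptobrevin, read 57.0 and 61.1 against 74.8 and 91.7 (change 0.49 ± 0.14, limma adjusted p = 0.0494). Neither overlapped between layers. In the same layer 7 of 9 nerve markers were higher, Nefl and Nefm going the other way, and their part in these values was not tested. Vamp7, which serves lysosomal and late endosomal fusion, was the exception, at 578 and 600.2 in the HC layer against 350.1 and 345 (change -0.76 ± 0.07, limma adjusted p = 0.00431). Vamp4 and Vamp8 did not pass, with changes of 0.07 ± 0.07 and -0.01 ± 0.10. A second Vamp4 probe was detected only in the SC layer, at 36.7 and 40.6 against 4.05 and 8.50, bounded at 2.41-fold or more (limma adjusted p = 0.0127).

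The synaptic VAMP calls, like that of Stx5, were kept in 7 of the 16 alternatives. On unscaled raw intensity Vamp1 and Vamp2 changed by -0.33 and -0.17, while Vamp3 and Vamp5 kept their sign at 0.34 and 0.16 without passing. Vamp1 had an adjusted p of 0.0601 to 0.0969 with any 1 array left out. Vamp2 had 0.192 and 0.143 without HC layer array 1 or 2 and 0.0881 without SC layer array 2.

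Among the SM and other syntaxin binding genes, 3 were higher in the HC layer and 1 in the SC layer, beside 37.2% and 28.2% of all tested genes. Stxbp3, a partner of Stx4, read 204 and 177 in the HC layer and 114 and 121 in the SC layer (change -0.70 ± 0.11, limma adjusted p = 0.0123), in the same direction as Stx4. Stxbp2 was detected in the HC layer alone, at 27.5 and 34.3. Its SC layer value rests on 1 array, at 2.94, since the other spot was irregular and left out. The fitted change of -3.39 (limma adjusted p = 0.00616) is no measure of size, with a bound of 1.15-fold or more, and with the irregular spot kept the adjusted p was 0.810.

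Tomosyn, Stxbp5, which competes with VAMP for the target SNAREs, was the member of this group higher in the SC layer. It read 157 and 145 in the HC layer and 311 and 293 in the SC layer (change 1.001 ± 0.086, limma adjusted p = 0.00370). A second tested probe had the same direction, with 18.3 and 21.2 against 41.4 and 48.8 (change 1.19 ± 0.14). Amisyn, Stxbp6, had probes in both directions. The brighter read 566 and 579 against 394 and 428 (change -0.48 ± 0.08, limma adjusted p = 0.0158), the dimmer 50.9 and 52.8 against 72.0 and 72.9 (change 0.48 ± 0.07, limma adjusted p = 0.0112), and their mean changed by 0.00. Stxbp4 was detected on 1 array and not tested. Without HC layer array 1 the adjusted p was 0.0501 for Stxbp3 and 0.0728 for Stxbp6, and without array 2 it was 0.0818 for Stxbp6.

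Of the 10 priming and active zone genes, Ctbp2, Bsn and Unc13d were tested. Ctbp2 encodes the ribbon protein RIBEYE as well as a transcriptional corepressor, and the files do not say which transcript the probe reads. It read 1088 on HC layer array 2 and 745 and 718 in the SC layer. Array 1 had a contaminated spot, raw intensity 1748, that was left out, so the change of -0.57 ± 0.10 (limma adjusted p = 0.0360) rests on 1 HC layer array. Leaving out an SC layer array would set 1 array against 1, which is no test of the gene. A second Ctbp2 probe of the same transcript accession was detected on no array.

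Bassoon, Bsn, which anchors ribbons at the active zone, read 268 and 259 in the HC layer and 227 and 209 in the SC layer. The layers did not overlap, but the change of -0.27 ± 0.08 just missed the threshold (limma adjusted p = 0.0580). Its second tested probe had the opposite sign and passed, at 72.1 and 79.5 against 111 and 119 (change 0.60 ± 0.10, limma adjusted p = 0.0132). Unc13d, a Munc13 protein of non-neuronal secretion, read 93.1 and 98.5 in the HC layer and 69.9 and 64.7 in the SC layer (change -0.51 ± 0.09, limma adjusted p = 0.0153). Its adjusted p was 0.0626 and 0.0787 without HC layer array 1 or 2. Pclo, Rims1, Rims2, Rims3, Rims4, Unc13b and Unc13c were detected on no array. Rims1 read 12.8 and 12.9 in the HC layer and 4.30 and 2.91 in the SC layer, below detection in both. Unc13c, also below detection in both, leaned the other way, at 0.10 and 2.32 against 5.61 and 10.8. No direction can be read from such values.

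The vesicle proteins were divided as well. Sv2a, a transporter-like vesicle glycoprotein, read 175 and 162 in the HC layer and 78.0 on the 1 SC layer array with a usable spot (change -1.11 ± 0.12, limma adjusted p = 0.0141). Syn3, the synapsin with a detected probe, read 192 on HC layer array 2, where array 1 was contaminated, and 109 and 115 in the SC layer (change -0.78 ± 0.11, limma adjusted p = 0.0234). In both, a layer rests on a single array, and leaving out an array of the other layer would set 1 array against 1, which is no test of the gene. Synaptophysin, Syp, went the other way, at 37.5 and 43.7 in the HC layer and 65.7 and 68.7 in the SC layer (change 0.73 ± 0.11, limma adjusted p = 0.0121). Its raw intensities were nearly equal on all arrays, at 51.5, 48.2, 51.5 and 52.9 in the same order, and on that scale the change was 0.07 and did not pass (adjusted p = 0.655).

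The relative of synaptophysin in non-neuronal cells, Sypl1, read 488 and 496 in the HC layer and 509.7 and 485 in the SC layer, overlapping, with a change of 0.02 ± 0.07 that did not pass. Syn1, Syn2 and Sv2b were detected on no array.

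Of the 4 disassembly genes, Nsf and Napb were called, in opposite directions, and Napa and Napg were not. NSF is the ATPase that takes SNARE complexes apart, and the attachment proteins Napa, Napb and Napg recruit it. Nsf read 236 and 248 in the HC layer and 67.6 and 66.5 in the SC layer. It was 3.61-fold higher in the HC layer (change -1.85 ± 0.07, limma adjusted p = 0.00141), with a range of -2.52 to -1.71 over the alternatives. Napb, the attachment protein enriched in brain, read 66.1 and 69.8 in the HC layer and 509 and 469 in the SC layer. It was 7.20-fold higher in the SC layer (change 2.85 ± 0.09, limma adjusted p = 0.00118), with a range of 2.16 to 2.98, and was higher there on raw intensity too, at 395 and 346 against 88.2 and 77.4. Napb is named by a single probe. Nerve markers moved both ways beside it, with Gria2 at 33.6 and 42.1 in the HC layer against 574.8 and 573.8. Nefl stood at 76.6 and 98.8 against 19.7 and 6.45, the last 2 not above background. Endothelial markers were higher in the SC layer. The part of nerve or vessel RNA in the Napb difference was not tested.

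The other attachment proteins showed no difference that passed. Napg read 254 and 183 in the HC layer and 233 and 209.5 in the SC layer (change 0.04 ± 0.20, limma adjusted p = 0.874). Napa read 19.7 and 26.9 in the HC layer and, undetected, 22.4 and 7.10 in the SC layer (change -0.87 ± 0.67, limma adjusted p = 0.314). Without SC layer array 1 its SC layer value rests on the undetected 7.10 alone, which is no test of the gene. A second Nsf probe lay the other way without being tested. It read 4.70 and 15.4 in the HC layer, not above background, and 33.0 and 30.5 in the SC layer, where array 1 alone was detected, so the layers did not overlap and the direction of Nsf rests on the brighter probe.

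Synaptojanin 1, Synj1, the lipid phosphatase that uncoats endocytosed vesicles, read 781 and 854 in the HC layer and 315 and 298 in the SC layer. It was 2.66-fold higher in the HC layer (change -1.41 ± 0.09, limma adjusted p = 0.00223), with a range of -2.12 to -1.30 over the alternatives. Snap91, the neuronal clathrin assembly protein, was detected on no array.

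**Figure D3:**
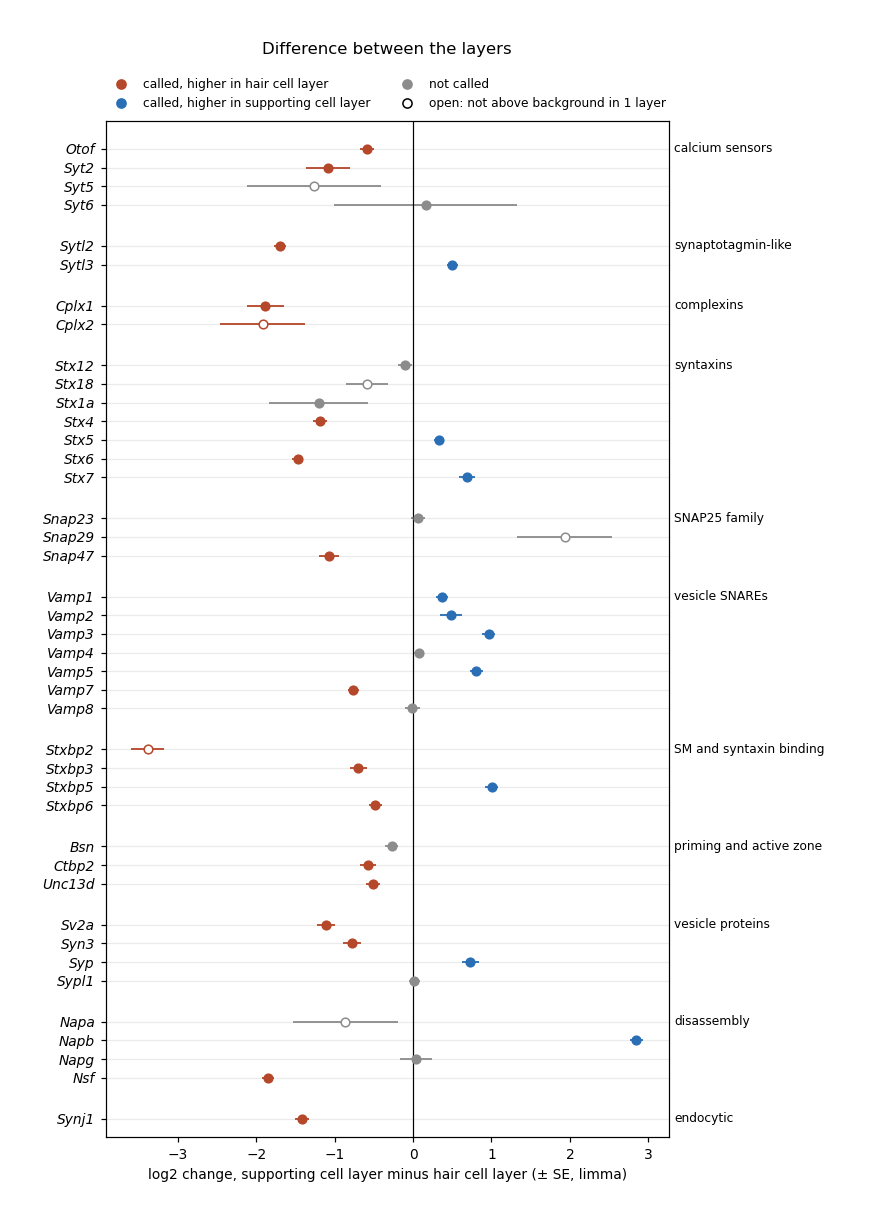
log2 change between the layers (horizontal axis, supporting minus HC layer) with its limma SE for the 41 tested genes, by role; open symbols mark genes not above background in 1 layer, where the fitted change gives no size. Napb lies farthest toward the SC layer at 2.85, and among genes detected on all 4 arrays Nsf at -1.85 lies farthest toward the HC layer.

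Across roles, 11 of the 41 tested members were called and at least 2-fold higher in the HC layer by fitted change, beside 21.5% of all tested genes, and 2 in the SC layer, beside 12.1%. The 11 include Cplx2 and Stxbp2, whose size is bounded only at 1.05-fold and 1.15-fold, and 6 of them were detected on all 4 arrays: Nsf, Synj1, Snap47, Sytl2, Stx4 and Stx6. Values on all 4 arrays existed for 37 tested members, and both arrays of a layer lay above both of the other in 30 (81.1%, beside 89.1% of all genes). Several probes were tested for 6 members, Bsn, Stx6, Stxbp5, Stxbp6, Sypl1 and Vamp4. Fitted changes had opposite signs in 4 of them, Bsn, Stx6, Stxbp6 and Sypl1.

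**Figure D4:**
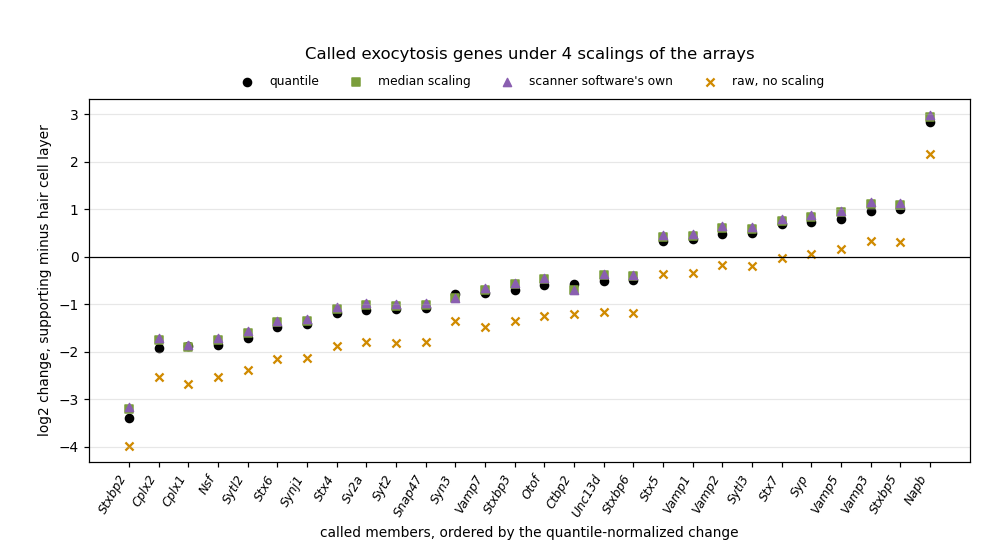
log2 change (vertical axis, supporting minus HC layer) of the 28 called members under 4 scalings of the arrays. Values after median scaling and those of the scanner software lie close to the quantile values, while raw intensity with no scaling shifts each gene toward the HC layer and turns Stx5, Stx7, Sytl3, Vamp1 and Vamp2 below 0.

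Partner genes outside the families, from a list of release and vesicle genes, are given by their counts. These stand beside 37.2% of all tested genes higher in the HC layer and 28.2% in the SC layer. Of 4 tested genes for calcium channels, their modulators and vesicle loading, 2 were higher in the HC layer: the channel subunit Cacna2d1 (change -1.52 ± 0.13, limma adjusted p = 0.00368) and the calcium binding protein Cabp1, bounded at 3.45-fold or more. The hair cell channel Cacna1d read 31.9 and 36.1 in the HC layer and 36.7 and 45.1 in the SC layer and did not pass. The hair cell glutamate transporter Slc17a8 was detected on 1 array and not tested, at 21.9 and 21.0 in the HC layer and 8.46 and 5.70 in the SC layer. Of 8 tested scaffold and tether genes 3 were higher in the HC layer and 1 in the SC layer. Among them the RIM binding protein Rimbp2 read 3275 and 3733 against 1368 and 1317 (change -1.38 ± 0.10, limma adjusted p = 0.00287), and Rab3b and Ppfia4 were detected in the HC layer alone.

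Of 10 tested vesicle membrane and chaperone genes outside the families, 4 were higher in each layer, beside the same 37.2% and 28.2%. Syngr3, a synaptogyrin, and Scamp1 were higher in the SC layer (changes 1.69 ± 0.23 and 1.61 ± 0.16), and the synaptophysin-like Sypl2 and Syngr2 in the HC layer (changes -1.13 ± 0.08 and -0.89 ± 0.12). These directions are again mixed within 1 family, as for the members themselves.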

How the data were processed

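Each array was quantified by the authors with CodeLink Expression Analysis 4.0.0.23520, per the file headers. The deposited raw intensity is corrected for local background, per the file headers and values; normalized intensity is that value over the array median. Genome build, animals and further processing are not given in the sources used here. Gene names came through the platform annotation, matched to the scanner rows by the values of 3 columns of the deposited series table, with symbols updated to GRCr8 RefSeq; the column of supporting cell layer replicate 2 is shifted there and no value was taken from that table. Contaminated, irregular and failed spots were left out and saturated ones kept. Raw intensities were quantile-normalized over gene probes, raised to a floor of 0.1 of the median and taken to log2. Probes detected on at least 2 of 4 arrays were tested with limma 3.58.1 in R 4.3.3 (eBayes, two-sided, Benjamini-Hochberg over all tested probes, called under 0.05), with no block; the prior had 1.31 degrees of freedom. The script was tested on simulated data. The brightest tested probe stands for a gene. Members, gene lists and the rule for named genes (all members by role, in full where called with a change or a bound of at least 2-fold or known from synapses) were chosen with earlier results of these data known. Bounds of fold use the lowest detected signals, 26.6 and 28.3 on the supporting and 13.9 and 18.5 on the hair cell layer arrays. Some items of the gene families are not reported here. Alternatives changed the scaling, floor, filter, flags, prior, probe choice, replicate block and arrays.

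The Schwann cell markers, not used above, gave 4 genes higher in the hair cell layer and 2 higher in the supporting cell layer, of 8 tested.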

Additional observations from a re-analysis of the deposited data

How the results depend on the processing

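Main counts were 18 members higher in the hair cell layer, 10 higher in the supporting cell layer and 11112 probes called. With the scanner software's normalized values they were 8, 4 and 6873, with no filter on dim probes 9, 4 and 6654, and with raw intensity and no scaling, added after the data were seen, 28 and 1. With 1 array left out they ran from 10 to 17, from 7 to 8 and from 7228 to 10009. With the replicate block they were 13, 7 and 8701, and 20 of the 28 calls were kept. The labels give no shared animal, and same-numbered arrays deviated from their layer means with a correlation of -0.03. With 2 arrays per layer that correlation cannot decide whether same-numbered arrays are paired. Other alternatives left the counts within 1.5 times. Changes that turned sign on raw intensity were Snap23 (-0.65), Stx5 (-0.36), Stx7 (-0.020), Sypl1 (-0.70), Napg (-0.65), Syt6 (-0.49), Sytl3 (-0.19), Vamp1 (-0.33), Vamp2 (-0.17) and Vamp4 (-0.62). Stxbp6 was 0.0016 as a mean over probes, and Syt6 was -1.40 without supporting cell layer replicate 1 and 1.62 without replicate 2. The cause was not tested. A signal below about 28 is not detected on supporting cell layer arrays, so dim members there have bounds only.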

Other observations

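Genes of vesicle retrieval came from the same list of release and vesicle genes. Their share higher in the HC layer was near that of all tested genes, and their share higher in the SC layer was below it. Of 15 tested endocytosis genes, 6 were higher in the HC layer, 1 was higher in the SC layer and 8 did not pass, beside 37.2% and 28.2% of all tested genes. The adaptor subunit Ap2a2 read 175 and 205 in the HC layer and 45.2 and 47.9 in the SC layer (change -2.02 ± 0.12, limma adjusted p = 0.00202). Ap2b1 and Ap2m1, of the same adaptor, changed by -1.16 ± 0.09 and -0.59 ± 0.07, and Ap2s1 by -0.26 ± 0.11, which did not pass. Dnm3, a dynamin that pinches vesicles off the membrane, was detected in the HC layer alone, at 60.2 and 73.6, bounded at 2.43-fold or more. The clathrin light chains went opposite ways, with Clta at -0.51 ± 0.12 and Cltb at 0.67 ± 0.07, and the heavy chain Cltc changed by -0.45 ± 0.08.

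The exocyst, the complex that tethers secretory vesicles to the plasma membrane, was divided. Of 7 tested subunits 3 were higher in the HC layer and 2 in the SC layer, near the 37.2% and 28.2% of all tested genes. Exoc5 read 39.3 and 43.4 in the HC layer and 163 and 161 in the SC layer (change 1.97 ± 0.09), Exoc8 was bounded at 2.24-fold or more toward the SC layer, and Exoc7 changed by -0.80 ± 0.08.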
